A study of Mus musculus with 12 samples.

Results

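Hepatic RNA of 10 insulin signalling genes was compared between KK and C57BL/6J mice of both sexes. The genes were Insr, Irs1, Irs2, Pik3r1, Akt1, Akt2, Foxo1, Trib3, Ppp1r3b and Ppp1r3c, taken by symbol from the platform annotation. All 10 are reported whatever their values, but earlier results of these data were known when they were chosen. Each of the 10 matched exactly 1 probe set among the 21212 probe sets on the array. RNA was measured with 1 whole-transcript array per mouse in 4 groups of 3 mice, which were KK females, C57BL/6J females, KK males and C57BL/6J males. KK is an inbred strain kept as a model of obesity and type II diabetes, and C57BL/6J is a common inbred strain. No group carried a transgene or received a drug. All mice were 8 weeks old, ate chow, had been housed alone for 3 days and had been without food for 4 hours when the large liver lobe was taken after perfusion with PBS. The tissue had stood in RNAlater for 24 hours, and 300 ng of total RNA was labelled. The strain is given as KK/HIJ in one label and as KK/J in another label of the same mice, and it is called KK here. The labels gave no litter, cage, extraction or scan batch.

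Insulin binds its receptor on the hepatocyte, the receptor phosphorylates the IRS adaptors, and these recruit phosphatidylinositol 3-kinase, whose lipid product activates AKT. AKT then drives glycogen synthesis and lipogenesis and holds the transcription factor FOXO1 out of the nucleus, where it would otherwise induce genes of glucose production. Glycogen-targeting subunits bring protein phosphatase 1 to the glycogen particle, where it activates glycogen synthase.

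Promoter windows of the 250 bases before each transcription start were taken from RefSeq (GRCm38.p6). The table held 13 windows for 8 of the 10 genes, with no entry for Insr or Ppp1r3b. The windows are shown for Pik3r1 and Ppp1r3c because the RNA of both genes differed between the strains. In the pair of Pik3r1 windows, which belong to different starts of the gene, the capitals mark each GGGCGG (the GC box). In the Ppp1r3c window they mark CACGTG (the palindromic E-box). All 3 lie on the minus strand and are written 5′ to 3′, ending at the base before the start.
Pik3r1, chr13:101768218-101768467: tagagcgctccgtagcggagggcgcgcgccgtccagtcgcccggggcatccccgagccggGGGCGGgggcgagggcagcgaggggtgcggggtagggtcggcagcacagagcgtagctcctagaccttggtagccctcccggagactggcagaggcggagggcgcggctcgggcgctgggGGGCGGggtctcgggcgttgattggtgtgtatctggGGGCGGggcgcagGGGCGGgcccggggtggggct
Pik3r1, chr13:101692631-101692880: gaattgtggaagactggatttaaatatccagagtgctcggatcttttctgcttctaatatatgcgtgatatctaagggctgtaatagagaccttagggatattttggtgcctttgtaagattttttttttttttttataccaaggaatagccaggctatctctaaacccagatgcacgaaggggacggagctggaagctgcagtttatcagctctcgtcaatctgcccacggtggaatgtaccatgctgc
Ppp1r3c, chr19:36736605-36736854: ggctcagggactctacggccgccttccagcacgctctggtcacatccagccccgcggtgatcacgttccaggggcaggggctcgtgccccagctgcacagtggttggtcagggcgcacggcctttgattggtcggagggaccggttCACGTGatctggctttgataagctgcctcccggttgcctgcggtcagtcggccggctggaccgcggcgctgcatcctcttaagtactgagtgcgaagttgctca

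The first Pik3r1 window held 4 GC boxes, whose first bases lay 190, 70, 34 and 21 bases before the start, and 76.4% of its bases were G or C. The second held none of the 4 motifs searched, and 42.4% of its bases were G or C. The array has 1 probe set for the gene, so RNA from the different starts was not told apart. The E-box CACGTG was found in 3 of the 13 windows, one each of Irs1, Irs2 and Ppp1r3c, against 6.02% of all 32851 windows in the table. The surrounding stretches are shown side by side because Ppp1r3c RNA differed between the strains while Irs1 and Irs2 RNA did not pass the test, as described next.
Irs1, chr1:82291537-82291566: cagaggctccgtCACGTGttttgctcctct
Irs2, chr8:11008956-11008985: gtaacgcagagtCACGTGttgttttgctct
Ppp1r3c, chr19:36736691-36736720: gagggaccggttCACGTGatctggctttga

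The capitals again mark the E-box, all 3 stretches are on the minus strand, and the motif began 115, 44 and 104 bases before the start of Irs1, Irs2 and Ppp1r3c in that order. GGGCGG, sought on both strands, was present in 7 of the 13 windows (Irs1, Irs2, Pik3r1, Akt1, Akt2, Foxo1 and Trib3), against 32.7% of all windows. The FOXO core GTAAACA was present in 1 window, against 3.17% of all windows. It belonged to Akt1, but to a different start from the Akt1 window with GGGCGG. The full cAMP response element TGACGTCA was in none of the 13 windows and in 1.55% of all windows. These matches describe letters in the windows and not bound sites.

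Values are log2 intensities, so that a difference of 1 is a 2-fold difference, and a strain difference is KK minus C57BL/6J. The medians of the 12 arrays lay between 5.90 and 6.03. Probe sets of 3 Y-linked genes in the 6 female livers, which cannot carry their RNA, read 3.79 to 4.66. The 10 genes read 6.62 to 10.13, above that level in every mouse. The tissue was checked with 7 hepatocyte markers, whose summed level (as log2) was 16.03 to 16.06 in KK females and 16.01 to 16.04 in C57BL/6J females, and 15.98 to 16.03 in KK males and 16.07 to 16.08 in C57BL/6J males. These ranges overlapped in females, and in males the KK livers lay slightly below the C57BL/6J livers. In bulk liver, fewer cells of a type and less RNA per cell cannot be told apart.

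Over both sexes, Pik3r1 was higher in KK livers, and Ppp1r3b and Ppp1r3c, both glycogen-targeting subunits, were lower. Thus 3 of 10 genes passed an adjusted p of 0.05 by limma, 1 higher and 2 lower, where 11.7% of all probe sets passed, 5.42% higher and 6.31% lower. All 10 genes had a mean above the median of the probe set means. Of the 10606 probe sets above that median, tested alone, 2404 passed, so the 11.7% is a low yardstick for genes at this level. Insr, Irs1, Irs2, Akt1, Akt2, Foxo1 and Trib3 did not pass. At an unadjusted p under 0.05 the counts were 5 of 10 genes and 22.7% of all probe sets. The median size of the strain difference, regardless of sign, was 0.16 over the 10 genes and 0.07 over all probe sets. That last value likewise includes the probe sets below the median mean. Each array was 1 mouse, so each difference was tested against the spread between mice within groups, estimated jointly over the 4 groups.

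**Figure D1:**
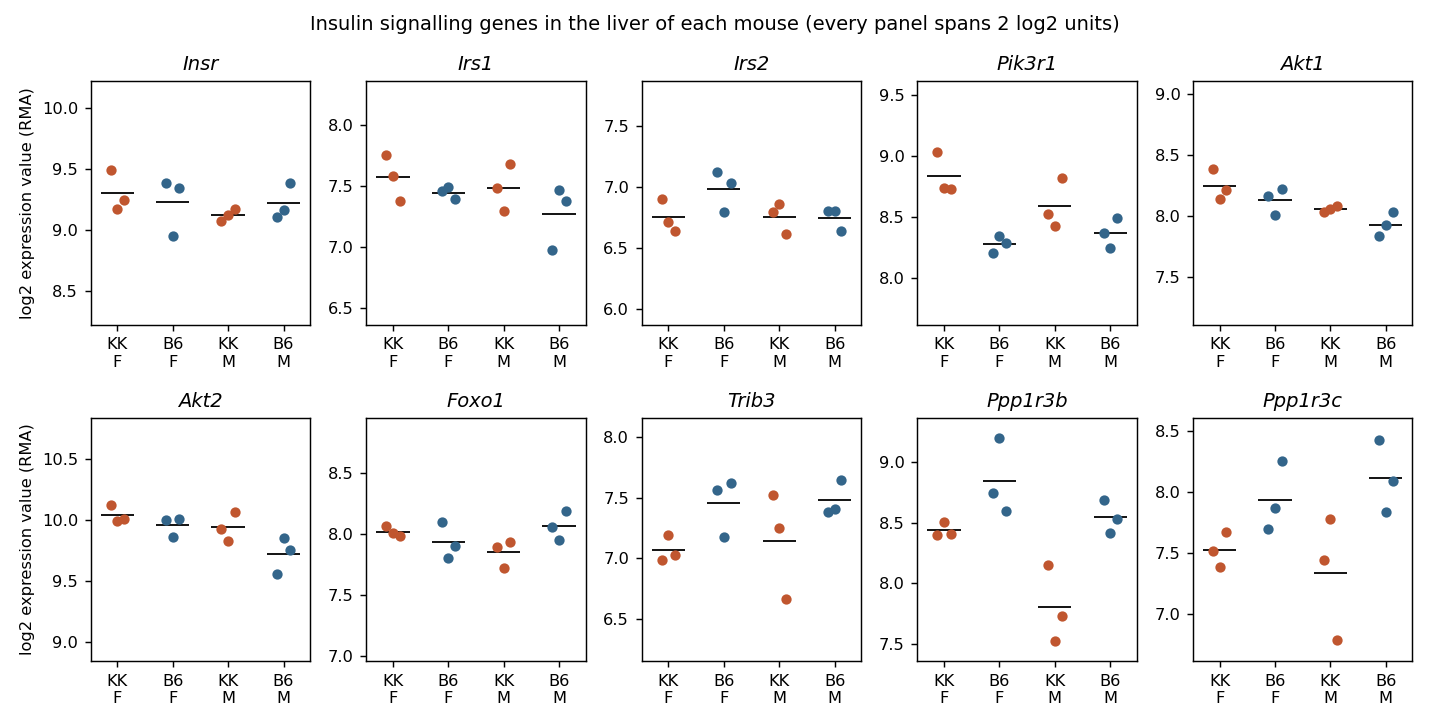
Log2 intensity of each of the 10 genes in every mouse, with 1 panel per gene, KK left of C57BL/6J within each sex, points for mice and bars for the mean of 3 mice. Pik3r1 lay higher in the 3 KK females (8.73 to 9.03) than in the 3 C57BL/6J females (8.20 to 8.35), and Ppp1r3b lay lower in the 3 KK males (7.53 to 8.16) than in the 3 C57BL/6J males (8.41 to 8.68).

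At the receptor, Insr read 9.49, 9.17 and 9.24 in the 3 KK females, against 9.38, 8.95 and 9.34 in the 3 C57BL/6J females. The males read 9.07, 9.13 and 9.17 in KK and 9.11, 9.17 and 9.39 in C57BL/6J. The strains overlapped in both sexes. The strain difference over both sexes was -0.01, with a 95% interval of -0.20 to 0.18 (limma, adjusted p = 0.971). That interval includes strain differences of about 0.2 in either direction.

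Irs1 and Irs2 encode the main adaptor proteins through which the hepatic insulin receptor engages phosphatidylinositol 3-kinase. Irs1 read 7.75, 7.59 and 7.38 in KK females against 7.46, 7.49 and 7.40 in C57BL/6J females. In males the Irs1 values were 7.49, 7.30 and 7.69 in KK against 6.97, 7.47 and 7.38 in C57BL/6J. The strains overlapped in both sexes, and the lowest Irs1 value of all belonged to a C57BL/6J male. Irs2 read 6.90, 6.71 and 6.64 in KK females and 7.12, 6.80 and 7.03 in C57BL/6J females. In males Irs2 read 6.80, 6.86 and 6.62 in KK and 6.80, 6.80 and 6.64 in C57BL/6J. Only the highest KK female reached into the C57BL/6J female range for Irs2, while the males of both strains covered nearly the same range. The difference over both sexes was 0.17 for Irs1 (95% interval -0.04 to 0.38, limma adjusted p = 0.357). For Irs2 it was -0.11 (95% interval -0.27 to 0.05, limma adjusted p = 0.437).

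Pik3r1 encodes the main regulatory subunit of class I phosphatidylinositol 3-kinase, p85alpha, and its shorter forms. It read 9.03, 8.74 and 8.73 in KK females against 8.20, 8.35 and 8.28 in C57BL/6J females. Pik3r1 in males read 8.52, 8.43 and 8.82 in KK against 8.37, 8.25 and 8.49 in C57BL/6J. Every KK female lay above every C57BL/6J female, while the lowest KK male lay below the highest C57BL/6J male. The groups fell in the order KK females (8.83 ± 0.17), KK males (8.59 ± 0.21), C57BL/6J males (8.37 ± 0.12) and C57BL/6J females (8.28 ± 0.07; SD, n = 3 each), and every neighbouring pair in that order overlapped. The strain difference over both sexes was 0.39 ± 0.08 (SE), 1.31-fold higher in KK, with a 95% interval of 0.21 to 0.56 and a limma adjusted p of 0.00712. In females alone it was 0.56 ± 0.11 (SE), or 1.47-fold, with a limma adjusted p of 0.0114. This made Pik3r1 the single gene of the 10 that passed in females, where 6.5% of all probe sets passed and 3.18% of all were higher in KK. In males the difference was 0.22 (95% interval -0.03 to 0.47, limma adjusted p = 0.363). The difference between the sexes, -0.34 with a 95% interval of -0.69 to 0.01, did not pass (limma, adjusted p = 0.800).

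AKT1 and AKT2 are the serine/threonine kinases that relay the signal, AKT2 being the form most tied to glucose metabolism. Akt1 read 8.38, 8.13 and 8.21 in KK females against 8.16, 8.01 and 8.22 in C57BL/6J females. In males Akt1 read 8.03, 8.06 and 8.08 in KK and 7.83, 7.92 and 8.03 in C57BL/6J. The females overlapped, and the KK males lay above the C57BL/6J males without overlap, by 0.0044. Akt2 read 10.13, 9.99 and 10.01 in KK females against 9.999, 9.86 and 10.01 in C57BL/6J females. In males Akt2 read 9.93, 9.82 and 10.07 in KK against 9.55, 9.85 and 9.75 in C57BL/6J. The strains overlapped in both sexes. The difference over both sexes was 0.12 for Akt1 (95% interval -0.01 to 0.25, limma adjusted p = 0.247) and 0.15 for Akt2 (95% interval 0.01 to 0.29, limma adjusted p = 0.173). Both passed when arrays were quantile normalized, at 0.15 for Akt1 (limma adjusted p = 0.0455) and 0.21 for Akt2 (limma adjusted p = 0.0209).

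FOXO1 is the transcription factor that AKT keeps inactive. Foxo1 read 8.07, 8.01 and 7.98 in KK females against 8.10, 7.80 and 7.90 in C57BL/6J females. Among males the values were 7.89, 7.72 and 7.93 in KK against 8.06, 7.95 and 8.19 in C57BL/6J. All KK males lay below all C57BL/6J males, whereas the females overlapped. The difference was 0.08 in females (95% interval -0.11 to 0.28, limma adjusted p = 0.779). In males it was -0.22 (95% interval -0.42 to -0.02, limma adjusted p = 0.247). The difference between the sexes, -0.30 with a 95% interval of -0.58 to -0.02, reached an unadjusted p of 0.0378 and an adjusted p of 0.765 by limma.

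TRIB3 is a pseudokinase that binds AKT and is induced through ATF4 in the stress response. Trib3 read 6.99, 7.19 and 7.03 in KK females against 7.56, 7.18 and 7.62 in C57BL/6J females. Trib3 in males read 7.52, 7.25 and 6.67 in KK against 7.38, 7.41 and 7.64 in C57BL/6J. One KK mouse of each sex reached into the C57BL/6J range, and the KK males spread over 0.86 log2 units. Trib3 was more variable within groups than 96.3% of all probe sets, with a residual SD of 0.26. The difference over both sexes was -0.36 ± 0.13 (SE; 95% interval -0.64 to -0.07), with a limma adjusted p of 0.108. Without the KK male of replicate 1 it was -0.45 with an adjusted p of 0.0340 by limma.

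The glycogen-targeting subunits showed the largest strain differences of the 10 genes over both sexes and in males, whereas in females that of Pik3r1 was larger. Ppp1r3b encodes GL, the targeting subunit first described in liver, and Ppp1r3c encodes PTG, which is found in liver and other tissues. Ppp1r3b read 8.40, 8.50 and 8.41 in KK females against 8.74, 9.19 and 8.60 in C57BL/6J females. Males had 8.16, 7.53 and 7.74 in KK against 8.68, 8.41 and 8.53 in C57BL/6J. Within each sex every KK mouse lay below every C57BL/6J mouse, but 1 of the 3 KK females (8.50) lay within the range of the C57BL/6J males. The groups ranked upwards as KK males (7.81 ± 0.32), KK females (8.44 ± 0.06), C57BL/6J males (8.54 ± 0.13) and C57BL/6J females (8.84 ± 0.31; SD, n = 3 each). Neighbouring groups in that ranking overlapped except KK males and KK females. Over both sexes the difference was -0.57 ± 0.12 (SE), a level 1.49-fold lower in KK, with a 95% interval of -0.82 to -0.32 and a limma adjusted p of 0.00647.

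In males alone Ppp1r3b differed by -0.74 ± 0.16 (SE) with a limma adjusted p of 0.0214. It was the single gene of the 10 to pass in males, where 5.15% of all probe sets passed and 3.06% of all were lower in KK. That call was lost without any 1 of 4 mice, the KK males of replicates 2 and 3 and the C57BL/6J males of replicates 1 and 3, with limma adjusted p between 0.0626 and 0.0889. In females the difference was -0.41 (95% interval -0.77 to -0.05, limma adjusted p = 0.208). The sexes were not shown to differ, with an interaction of -0.33 (95% interval -0.83 to 0.18, limma adjusted p = 0.864).

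Ppp1r3c read 7.52, 7.39 and 7.67 in KK females against 7.70, 7.87 and 8.26 in C57BL/6J females. Ppp1r3c in males read 7.45, 7.78 and 6.79 in KK against 8.43, 7.84 and 8.09 in C57BL/6J. Within each sex the KK mice lay below the C57BL/6J mice, by a narrow margin of 0.03 in females and 0.06 in males. The residual SD of 0.33 was larger than that of 98.4% of all probe sets. The group means were 7.53 ± 0.14 in KK females, 7.94 ± 0.29 in C57BL/6J females, 7.34 ± 0.50 in KK males and 8.12 ± 0.30 in C57BL/6J males (SD, n = 3 each). Over both sexes Ppp1r3c differed by -0.60 ± 0.16 (SE), or 1.51-fold lower in KK, with a 95% interval of -0.95 to -0.25 and a limma adjusted p of 0.0307. This call was lost without any 1 of 7 mice, which were the KK females of replicates 1 and 2, the C57BL/6J females of replicates 2 and 3, the KK male of replicate 1 and the C57BL/6J males of replicates 1 and 3 (limma adjusted p 0.0502 to 0.0748). The difference was -0.41 in females (limma adjusted p = 0.415) and -0.78 in males (limma adjusted p = 0.0772), and the difference between the sexes was -0.37 (95% interval -1.07 to 0.34, limma adjusted p = 0.883).

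**Figure D2:**
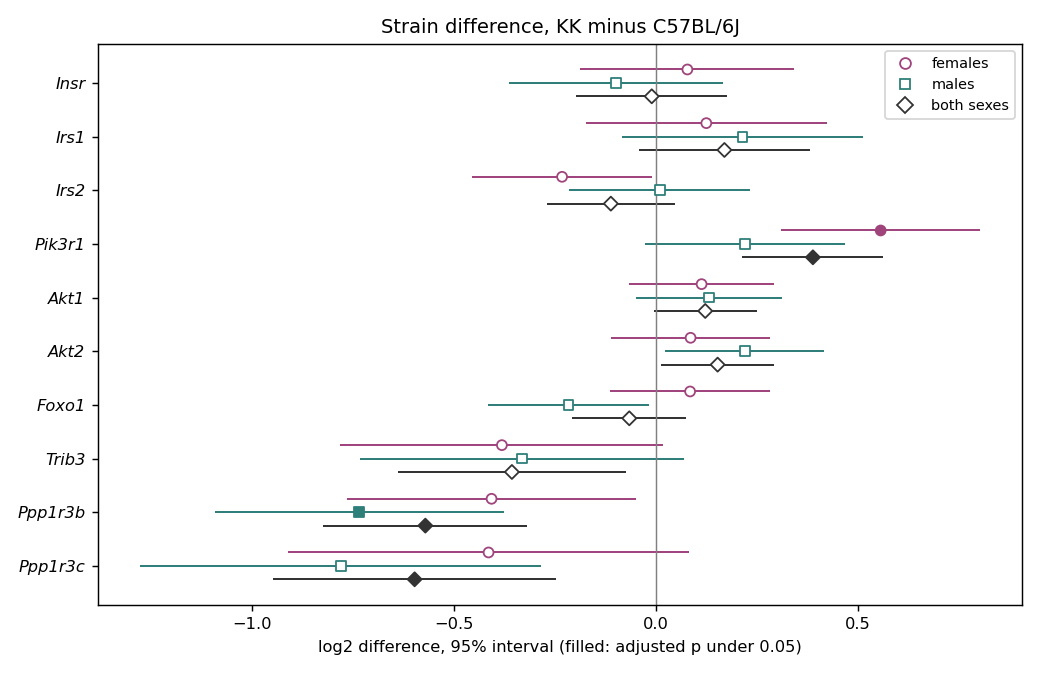
Strain difference of each gene, KK minus C57BL/6J on the log2 scale, in females, in males and over both sexes, with 95% intervals from limma and filled points for an adjusted p under 0.05. Pik3r1 is filled in females and over both sexes, Ppp1r3b in males and over both sexes, and Ppp1r3c over both sexes.

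Counted by overlap alone, the 3 KK females lay entirely to one side of the 3 C57BL/6J females for 3 of 10 genes (Pik3r1 above, Ppp1r3b and Ppp1r3c below), where 20.6% of all probe sets were so separated. The males were separated for 4 of 10 genes (Akt1 above, Foxo1, Ppp1r3b and Ppp1r3c below), against 21.7% of all probe sets. Over both sexes none of the 10 genes separated the 6 KK from the 6 C57BL/6J mice, against 5.98% of all probe sets.

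Some markers of non-parenchymal cells moved with strain as well. Of 7 measured markers of Kupffer cells and macrophages, 3 were lower in KK over both sexes, namely Marco (-0.745), Adgre1 (-0.59) and Clec4f (-0.41). Of all probe sets, 6.31% were lower in KK by the same test. The other 4 markers did not pass. Timd4, Vsig4 and Cd5l had a higher mean in KK females and a lower one in KK males, and Csf1r a lower mean in both. The summed level of the 7 was 11.58 to 12.40 in KK females against 11.62 to 11.79 in C57BL/6J females, and 10.45 to 10.98 in KK males against 11.05 to 11.63 in C57BL/6J males. In the females these ranges overlapped, whereas Ppp1r3b and Ppp1r3c were lower in KK without overlap. In the males the KK livers lay below the C57BL/6J livers, as they did for Ppp1r3b and Ppp1r3c. Of 7 sinusoidal endothelial markers, Lyve1 (-0.74) and Fcgr2b (-0.40) were lower, and the summed level was 11.84 to 12.14 in KK females against 11.98 to 12.09 in C57BL/6J females, and 11.65 to 11.77 in KK males against 11.68 to 11.81 in C57BL/6J males. Among the other endothelial markers, Clec4g and Stab1 had a higher mean in KK in both sexes, and Stab2, Kdr and Pecam1 a lower one. Col3a1 (-0.33), 1 of 7 stellate markers, and Apoa1 (-0.34), 1 of 7 hepatocyte markers, were lower. The Clec4f call held without the KK female of replicate 1, the C57BL/6J female of replicate 3, the KK male of replicate 3 or the C57BL/6J males of replicates 1 or 3, and otherwise its limma adjusted p lay between 0.0528 and 0.0734. The Adgre1 call held without the KK female of replicate 1, the KK male of replicate 3 or the C57BL/6J males of replicates 1 or 3, and otherwise its limma adjusted p lay between 0.0677 and 0.101. With the replicate block it was 0.0544. These markers were named after their values had been seen, and their part in the results for the 10 genes was not tested.

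Next, males were compared with females within each strain. None of the 10 genes passed in KK or in C57BL/6J by limma, where 2.17% and 1.03% of all probe sets passed. At an unadjusted p under 0.05 the counts were 2 of 10 in KK (15.7% of all probe sets) and 3 of 10 in C57BL/6J (8.17%). In KK mice, 8 of the 10 genes had a lower mean in males, while 58.7% of all probe sets had a higher one. The difference furthest from 0 was that of Ppp1r3b, which read 8.16, 7.53 and 7.74 in KK males against 8.40, 8.50 and 8.41 in KK females. It was -0.63 ± 0.16 (SE; 95% interval -0.99 to -0.27), with a limma adjusted p of 0.0798. That p was 0.0354 without the KK male of replicate 1 and 0.0419 without the C57BL/6J female of replicate 2. Of the 7 Kupffer cell and macrophage markers, 6 were lower in KK males than in KK females, as were 2 of the 7 endothelial markers, Stab2 and Fcgr2b, with the summed levels given above. Of these 8 calls, that of Vsig4 held in all 20 settings and that of Clec4f in 19, while Adgre1 passed in 8, Timd4 in 14, Cd5l and Stab2 in 15, Fcgr2b in 16 and Csf1r in 17. Leaving out the KK male of replicate 1 or 2 ended the calls of Adgre1, Timd4, Cd5l, Csf1r, Stab2 and Fcgr2b. Leaving out the KK female of replicate 1 ended those of Adgre1, Timd4, Cd5l, Stab2 and Fcgr2b, the KK female of replicate 2 those of Adgre1 and Timd4, and the KK female of replicate 3 that of Stab2. The Adgre1 call was also lost without any C57BL/6J female or without the C57BL/6J males of replicates 1 or 3. Over these losses the limma adjusted p lay between 0.0534 and 0.182. The part of these markers in the Ppp1r3b values was not tested.

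Males and females of KK did not overlap for Insr, Akt1, Foxo1 and Ppp1r3b, in each case with the males lower, which is 4 of 10 genes against 18.6% of all probe sets. In C57BL/6J the sexes did not overlap for Akt2, with 9.55, 9.85 and 9.75 in males against 9.999, 9.86 and 10.01 in females. This was 1 of 10 genes against 13.1% of all probe sets. The Akt2 difference there was -0.24 (95% interval -0.43 to -0.04, limma adjusted p = 0.463). Akt1 was lower in males by a similar amount in both strains, -0.19 in KK and -0.20 in C57BL/6J, with limma adjusted p of 0.304 and 0.513. For the interaction of strain and sex none of the 10 genes passed by limma, where 0.141% of all probe sets passed. At an unadjusted p under 0.05 the interaction counts were 1 of 10 (Foxo1) and 6.35% of all probe sets.

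**Figure D3:**
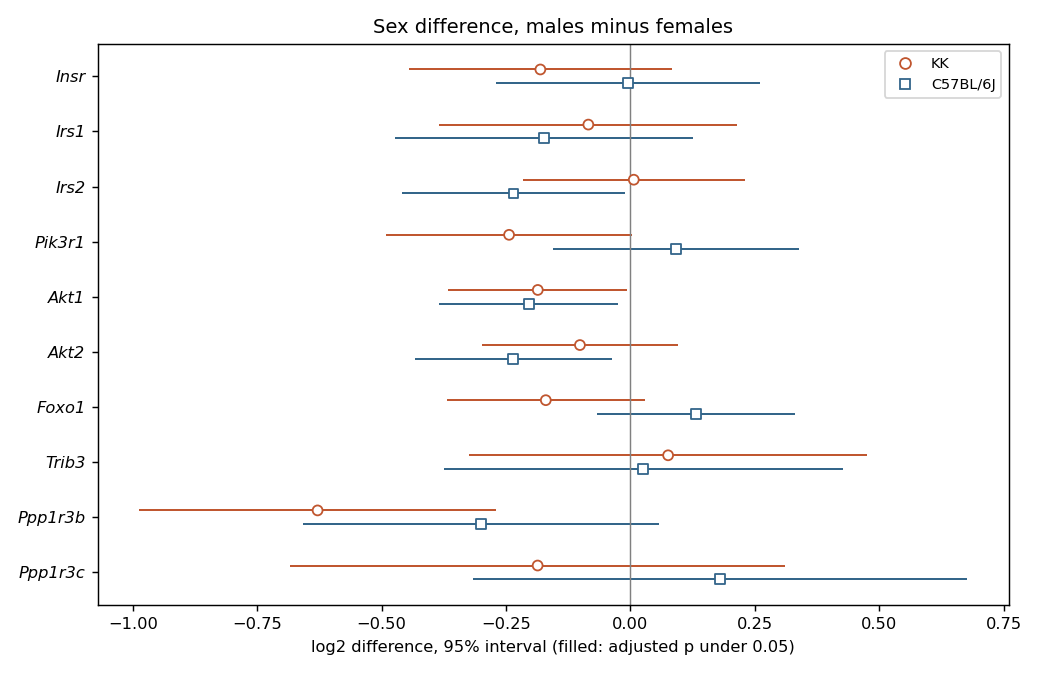
Male minus female difference of each gene on the log2 scale in KK and in C57BL/6J, with 95% intervals from limma and filled points reserved for an adjusted p under 0.05. No point is filled, and the Ppp1r3b difference in KK (-0.63) lies furthest from 0.

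The wider pathway was described through 9 lists of 133 genes, of which 125 were named on the array. Over both sexes 18 of the 125 genes differed between strains, 9 higher and 9 lower in KK. That is 14.4%, beside 11.7% of all probe sets. In females 17 genes passed (13.6%, beside 6.5% of all probe sets) and in males 8 (6.40%, beside 5.15%), so that the male count lay near the background. Sgk1, Thrsp, Scd1, Txnip, Ugp2 and Gys2 were among those that passed over both sexes, and their values follow by role.

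**Figure D4:**
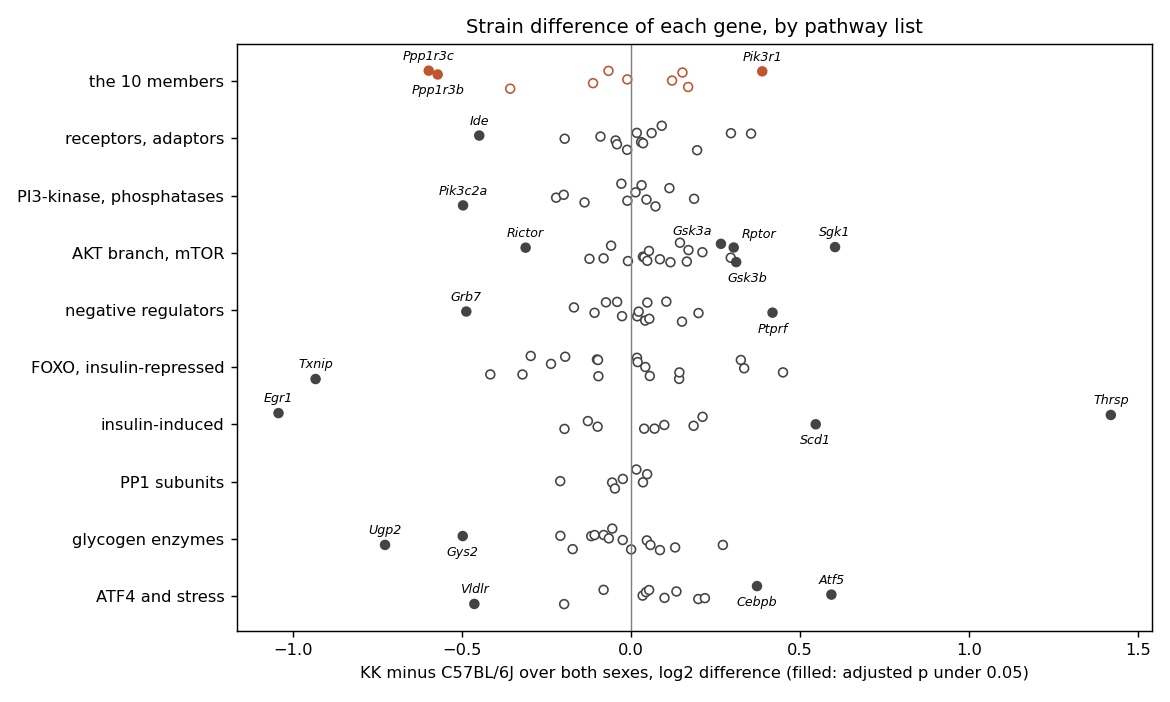
Strain difference over both sexes, KK minus C57BL/6J on the log2 scale, of the 10 genes in the top row and of each measured gene of the 9 pathway lists below, 1 point per gene, filled and named where the limma adjusted p was under 0.05. Filled points lie on both sides of 0, from Egr1 at -1.04 to Thrsp at 1.42.

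Upstream of AKT and among the negative regulators the share of genes that differed lay near the 11.7% of all probe sets. Of 14 further receptors and adaptors, 1 passed, Ide, the insulin-degrading enzyme, at -0.45 ± 0.09 (SE). Among 12 phosphatidylinositol 3-kinase subunits and lipid phosphatases other than Pik3r1, 1 passed over both sexes, Pik3c2a, a class II catalytic subunit, at -0.50 ± 0.11 (SE). Pik3c2a read 7.67, 6.997 and 7.51 in KK females against 7.81, 7.55 and 7.71 in C57BL/6J females. In males it read 7.07, 7.33 and 7.50 in KK against 7.92, 7.90 and 8.16 in C57BL/6J. The males were fully separated, and 1 KK female overlapped the C57BL/6J females. Of 15 negative regulators, Ptprf, the receptor tyrosine phosphatase LAR, was higher by 0.42 ± 0.07 (SE), and Grb7, an adaptor related to Grb10 and Grb14, fell by 0.49 on the log2 scale.

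In the AKT branch 5 of 20 genes (25%) differed, 4 higher and 1 lower in KK, beside 11.7% of all probe sets (5.42% higher and 6.31% lower), and 3 of the 5 calls depended on single mice as given below. The 11.7% is again a low yardstick, as 2404 of the 10606 probe sets above the median mean passed. Sgk1, a kinase related to AKT, read 8.20, 7.73 and 7.85 in KK females against 7.12, 7.04 and 7.06 in C57BL/6J females. In males it read 7.23, 7.31 and 7.32 in KK against 6.73, 7.10 and 6.96 in C57BL/6J. The strains did not overlap in either sex, and the difference was 0.60 ± 0.08 (SE; limma adjusted p = 0.000395). Rptor, which encodes the mTORC1 subunit raptor, was higher by 0.30 ± 0.06 (SE), and Rictor, its counterpart in mTORC2, was lower at -0.31 ± 0.09 (SE). Gsk3a and Gsk3b, the kinases that phosphorylate and inhibit glycogen synthase, were higher by 0.27 and 0.31. The Rictor and Gsk3a calls were each lost in 8 of 12 leave-one-out fits and that of Gsk3b in 9 of 12. The Rictor call held without the KK female of replicate 1, the C57BL/6J female of replicate 2, the KK male of replicate 3 or the C57BL/6J male of replicate 1, and otherwise its limma adjusted p lay between 0.0756 and 0.0996. The Gsk3a call held without the KK females of replicates 1 or 3 or either male of replicate 1, and otherwise its limma adjusted p lay between 0.0584 and 0.102. The Gsk3b call held without the KK female of replicate 2, the KK male of replicate 2 or the C57BL/6J male of replicate 3, and otherwise its limma adjusted p lay between 0.0638 and 0.113.

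Genes at the output of the pathway moved in both directions. Among 11 genes that insulin induces, 3 passed (27.3%, beside 11.7% of all probe sets, a low yardstick for genes above the median mean). Thrsp, a promoter of lipogenesis, was higher by 1.42, and Scd1, the stearoyl-CoA desaturase, was higher by 0.55. Egr1, an immediate early transcription factor, was lower at -1.04. Among 18 FOXO factors and genes that insulin represses, 1 passed over both sexes (5.56%), Txnip, which encodes an inhibitor of thioredoxin and of glucose uptake. Txnip read 9.42, 9.03 and 9.08 in KK females against 9.91, 9.74 and 10.35 in C57BL/6J females. In males it read 8.73, 8.51 and 8.96 in KK against 9.65, 9.83 and 9.85 in C57BL/6J. All 6 KK mice lay below all 6 C57BL/6J mice, and the difference was -0.93 ± 0.11 (SE).

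In females alone 5 of those 18 genes (27.8%) differed, beside 6.5% of all probe sets, with G6pc, Pck1 and Bcl6 higher and Txnip and Gadd45a lower in KK. The 6.5% is likewise a low yardstick, as 1362 of the 10606 probe sets above the median mean passed in females. G6pc and Pck1, which encode the gluconeogenic enzymes glucose-6-phosphatase and PEPCK, were named after their values had been seen. G6pc read 11.83, 11.76 and 11.85 in KK females against 11.39, 11.12 and 10.67 in C57BL/6J females, a difference of 0.75 ± 0.20 (SE; limma adjusted p = 0.0416). Pck1 read 12.56, 12.75 and 12.74 in KK females against 12.47, 12.02 and 11.82 in C57BL/6J females, a difference of 0.58 ± 0.14 (SE; limma adjusted p = 0.0298). The KK females were above the C57BL/6J females without overlap for both enzymes. The G6pc call was lost in 8 of 12 leave-one-out fits (limma adjusted p 0.0549 to 0.148) and held without the C57BL/6J female of replicate 1, the KK male of replicate 3 or the C57BL/6J males of replicates 2 or 3. The Pck1 call was lost without any 1 of the KK or C57BL/6J females of replicates 2 and 3 (limma adjusted p 0.0893 to 0.107). The Bcl6 call in females was lost without the KK female of replicate 3 or the C57BL/6J females of replicates 2 or 3 (limma adjusted p 0.0708 to 0.0769), and that of Gadd45a without the KK females of replicates 1 or 3 (limma adjusted p 0.0749 to 0.0811). The fit of the 2 female groups alone also ended the calls of Pck1 (limma adjusted p = 0.0918) and Gadd45a (0.0820). Array weights ended those of Pck1 (0.0950) and G6pc (0.0602), and a trended robust prior that of G6pc (0.0508). The difference between the sexes was -0.83 for G6pc and -0.52 for Pck1, with limma adjusted p of 0.626 and 0.722.

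On the glycogen side, none of 7 further subunits of protein phosphatase 1 passed by limma, and 1 had an unadjusted p under 0.05. This was Ppp1cb, a catalytic subunit named after its value had been seen, at -0.21 (unadjusted p = 0.0116). Of 16 glycogen enzymes, 2 passed, and both were lower in KK. That is 12.5%, near the 11.7% of all probe sets. Gys2, the liver glycogen synthase on which the phosphatase acts, read 10.57, 10.33 and 10.77 in KK females against 10.95, 10.83 and 11.27 in C57BL/6J females. In males Gys2 read 10.93, 10.98 and 10.87 in KK against 11.36, 11.43 and 11.61 in C57BL/6J. The strains did not overlap in either sex, and the difference was -0.50 ± 0.09 (SE; limma adjusted p = 0.00303). Ugp2, which makes the UDP-glucose that glycogen synthase uses, read 9.33, 8.84 and 9.24 in KK females against 9.69, 9.70 and 9.86 in C57BL/6J females. In males Ugp2 read 9.07, 9.03 and 9.14 in KK against 9.92, 9.86 and 9.97 in C57BL/6J. All 6 KK mice lay below all 6 C57BL/6J mice for Ugp2, and the difference was -0.73 ± 0.08 (SE), or 1.66-fold lower in KK (limma adjusted p = 5.97e-05).

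Around Trib3, 3 of 12 ATF4 and stress response genes passed (25%, beside 11.7% of all probe sets, a low yardstick for genes above the median mean). Atf5 and Cebpb, both transcription factors, were higher by 0.59 and 0.37, and Vldlr, the very low density lipoprotein receptor, was lower at -0.46. The Vldlr means lay further apart in females, at 5.28 in KK and 6.18 in C57BL/6J. In males the means were 5.24 in KK and 5.27 in C57BL/6J. All but the C57BL/6J female mean lay below the array medians of 5.90 to 6.03. No gene of this list passed the interaction of strain and sex by limma. Trib3 itself did not pass.

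Genes whose profile over the 12 livers lay closest to each of the 3 genes that differed were ranked by the root mean square difference of mean-centred log2 values among 18785 genes. For Pik3r1, whose own values varied by 0.25 around their mean, the closest were Gsk3b (0.08), Ubn2 (0.09) and Srsf4 (0.09). For Ppp1r3b, which varied by 0.42, they were Sult1a1 (0.15), Akr1d1 (0.16) and Plscr2 (0.19). For Ppp1r3c, which varied by 0.41, they were Cebpe (0.21), Fam234b (0.22) and Rnf185 (0.23). The strain difference of these neighbours had the sign of the gene they were closest to, which their selection makes likely.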

How the data were processed

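Liver RNA of 12 mice was measured on 12 arrays. The values are the deposited log2 intensities of the series' value table, which the authors made with RMA in the affy package, per the submitters' processing notes, with versions not given in the sources used here. They were used without further scaling. Gene symbols came from the platform annotation, in which 18786 probe sets had 1 symbol, 6 several and 2420 none. A gene with several probe sets was read through the first one in the order of the values.

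All 21212 probe sets were fitted with limma 3.58.1 in R 4.3.3, with a mean for each of the 4 groups and empirical Bayes variances. Strain was tested over both sexes and in each sex, sex in each strain, and the interaction, with Benjamini-Hochberg adjustment over all probe sets in each of the 6 comparisons and a threshold of 0.05. The test was checked on simulated data. The 10 genes and the pathway and marker lists were chosen with earlier results of these data known. Named genes were all 10, up to 4 per pathway list with the smallest adjusted p for strain, up to 2 for sex or the interaction, and the 3 closest in profile to each gene that passed. Other named genes were chosen after their values were seen. Motifs were searched in promoter windows on both strands with Python 3.11.15. Alternatives were quantile and cyclic loess normalization, a filter at the median, a trended robust prior, array weights, a replicate block, 2-group fits, leaving out each mouse and, chosen after seeing the data, the array interquartile range as a covariate.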

Additional observations from a re-analysis of the deposited data

Results flagged for a closer look

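Bcl6, a transcriptional repressor and 1 of the 18 FOXO factors and genes that insulin represses, met the criterion of a strain effect that differed between the sexes by a test of the interaction itself. It read 7.27, 7.32 and 7.56 in KK females against 6.76, 6.30 and 6.24 in C57BL/6J females. In males it read 7.27, 7.85 and 6.92 in KK against 9.03, 8.95 and 9.39 in C57BL/6J. The KK females lay above the C57BL/6J females and the KK males below the C57BL/6J males, without overlap in either sex. The strain difference was 0.95 ± 0.21 (SE) in females, a call lost without the KK female of replicate 3 or the C57BL/6J females of replicates 2 or 3 (limma adjusted p 0.0708 to 0.0769), and -1.78 ± 0.21 (SE) in males, and the interaction was -2.73 ± 0.30 (SE; limma adjusted p = 0.00264). No other gene of the pathway lists and none of the 10 insulin signalling genes passed the interaction test by limma; at an unadjusted p under 0.05, 21 of 125 list genes and 1 of the 10 did, beside 6.35% of all probe sets.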

How the results depend on the processing

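Of 1180 differences of the 10 genes recomputed under other settings, 1110 kept their direction and their side of the threshold, 15 passed where they had not, 11 no longer passed and 44 changed sign, all 44 of them not passing in either fit. Pik3r1 and Ppp1r3b passed over both sexes in all 19 settings (0.33 to 0.43 and -0.66 to -0.45), Pik3r1 in females in all 20, Ppp1r3c in 12 of 19 and Ppp1r3b in males in 16 of 20. The count over both sexes was 5 under quantile normalization and with the array interquartile range as a covariate, and 4 under cyclic loess, where Akt2 also passed. It was 2 in females under array weights, and 2 in males under quantile normalization, the filter at the median, array weights and the interquartile range. Without 1 mouse it was 0 to 1 in males and 0 to 1 between the sexes of KK, where the filter at the median also gave 1. Signs turned for Insr over both sexes under quantile (0.025), loess (0.0305) and the interquartile range (0.0162), for Insr between C57BL/6J sexes under quantile (0.0168) and the interquartile range (0.026), for Irs1 between KK sexes under the interquartile range (0.0126), and under array weights for Insr (-0.0044) and Foxo1 (-0.0057) in females and Trib3 between C57BL/6J sexes (-0.0497). Without 1 mouse, values crossing 0 ranged from -0.0793 to 0.0312 (Insr, both sexes), -0.0596 to 0.156 (Insr, females), -0.142 to 0.0735 (Insr, C57BL/6J sexes), -0.184 to 0.0123 (Irs1, KK sexes), -0.0494 to 0.0815 (Irs2, KK sexes), -0.0456 to 0.0793 (Irs2, males), -0.111 to 0.108 (Trib3, C57BL/6J sexes), -0.112 to 0.315 (Trib3, KK sexes) and -0.407 to 0.0876 (Ppp1r3c, KK sexes), and for the interaction from -0.0362 to 0.087 (Akt1), -0.0606 to 0.187 (Irs1) and -0.138 to 0.289 (Trib3). The cause of these changes was not tested. Replicate numbers were not taken to pair the mice, since the labels name nothing shared and 10 of 18 same-numbered pairs, not every pair, had a correlation over 0.1. The median was 0.11 against -0.05 for other numbers, and 8 of 12 arrays correlated best with an array of their own number, a hint from the data and not the design. With the replicate block the strain differences over both sexes were 0.39 (Pik3r1), -0.57 (Ppp1r3b) and -0.60 (Ppp1r3c), and 3 genes passed. The number of mice, 3 per group, limits the precision.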

Other observations

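Between the sexes, 3 of 125 pathway list genes passed by limma in KK and 3 in C57BL/6J. Each count is 2.4% of the list, beside 2.17% of all probe sets in KK and 1.03% in C57BL/6J. Of the 10606 probe sets above the median mean, tested alone, 495 passed in KK and 228 in C57BL/6J. Sgk1 and Ppargc1a, the coactivator of gluconeogenic genes, were lower in KK males than in KK females, at -0.64 ± 0.12 and -0.70 ± 0.14 (SE). Gadd45a, a stress-inducible gene named after its values had been seen, was higher in KK males than in KK females by 0.75 ± 0.16 (SE). In C57BL/6J, Fasn, the fatty acid synthase, was lower in males at -0.89 ± 0.16 (SE), with values of 8.96 to 9.65 in males and 10.03 to 10.29 in females. Vldlr was also lower in C57BL/6J males, at -0.90 ± 0.11 (SE), and Bcl6 was higher in C57BL/6J males by 2.69 ± 0.21 (SE). Leaving out 1 mouse ended some of these calls by limma. That of Sgk1 was lost without the KK female of replicate 1 or the KK males of replicates 1 or 2 (adjusted p 0.0507 to 0.0719). That of Ppargc1a was lost without the KK females or KK males of replicates 1 or 2 (adjusted p 0.0581 to 0.111). That of Gadd45a was lost without any KK male or the KK females of replicates 1 or 3 (adjusted p 0.0802 to 0.135). That of Fasn was lost without the C57BL/6J females of replicates 2 or 3 or the C57BL/6J males of replicates 1 or 2 (adjusted p 0.0647 to 0.0890). The fit of only the 2 groups compared also ended the calls of Sgk1 (adjusted p = 0.0667), Ppargc1a (0.0880) and Fasn (0.0620). Of these genes, Bcl6 alone passed the test of the interaction.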
